A study of Mus musculus with 6 samples.

Results

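The clustered protocadherins are 58 genes that lie side by side on chromosome 18 of the mouse, 14 in the alpha, 22 in the beta and 22 in the gamma cluster. They were chosen by symbol (Pcdha, Pcdhac, Pcdhb, Pcdhga, Pcdhgb and Pcdhgc with a number), and were set beside the 34673 H3K9me3 peaks that the authors list as WT-specific in Bergmann glia (BG). Of these peaks, 26 were centred between the start of Pcdha1 and the end of the gamma genes, at 36930285 to 37841873 of mm10, and 24 of the 26 carried the name of a member as the gene with the nearest transcription start site (TSS). The other 2 were named for Slc25a2 and Taf7, genes that lie between the beta and gamma clusters. No peak outside the locus was assigned to a member.

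H3K9me3, trimethylated lysine 9 of histone H3, marks silent chromatin, and among the enzymes that deposit it is Setdb1. The ChIP-seq libraries, all from BG of C57BL/6 mice at postnatal day 10, were 2 of H3K9me3 from mutant (MT) BG, 2 of H3K9me3 from wild type (WT) BG and 2 controls, whose labels name both input and IgG. In the study's methods, mutant BG are homozygous for floxed Setdb1, deleted by a Cre that the mouse GFAP promoter drives in neural cells of the cerebellum other than Purkinje cells, and BG were sorted by the green fluorescence of a Nestin reporter. BG are the radial astroglia whose fibres guide granule cells inwards.

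The list merges the libraries and holds no value for mutant BG. Its heading leaves unclear whether input, mutant BG or both served as the background of the call. There is thus no replicate error, the depth is unknown, and no difference between mutant and WT BG could be tested. A gene with no WT-specific peak may carry H3K9me3 in both genotypes or in neither, since peaks found in both were left out by construction. The list holds no RNA, so the cell type could not be checked against its markers, and fewer marked cells cannot be told apart from less of the mark per cell. Whether the libraries of 1 genotype are from separate animals is not stated in the sources used here. The study's methods and its resource sheet name different antibodies against H3K9me3.

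Clustered protocadherins are adhesion molecules of the cadherin superfamily that bind their own kind on facing membranes, and in neurons the combination a cell expresses serves to tell self from non-self. Each alpha and gamma transcript joins 1 variable first exon, which encodes the cadherin repeats, the membrane span and part of the cytoplasmic tail, to constant exons shared by the whole cluster, while each beta gene is a single exon. A neuron chooses promoters of the alpha, beta, gamma A and gamma B genes at random, with CTCF and cohesin looping the chosen promoter to enhancers. The C-type genes at the ends of the alpha and gamma clusters are expressed more uniformly. DNA methylation and H3K9me3 silence promoters that are not chosen, and in mouse forebrain neurons Setdb1 is known to act on this locus. Astroglia express gamma protocadherins as well.

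In the RefSeq annotation of GRCm38.p6, whose build is that of mm10, all members lie on the plus strand. The variable exons measured 2382 to 2853 bp in the alpha, 2340 to 5271 bp in the beta (here the whole gene) and 2499 to 2961 bp in the gamma cluster. All but Pcdhgb8, a transcribed pseudogene, are protein-coding. The alpha and gamma clusters each have 3 constant exons, and no peak was centred on any of them. Since each alpha and gamma gene is annotated from its own first exon to the shared last one, gene spans were long, at a median of 204.522 kb for alpha and 113.534 kb for gamma genes against 3.4175 kb for beta genes. A peak in the body of such a gene therefore lies in the spans of many members at once, so peaks are described below by variable exon and by spacer, the sequence between these exons.

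WT-specific H3K9me3 peaks were densest in the gamma cluster, followed by the spacer between beta and gamma, which holds no member, and then by the beta cluster. The alpha cluster held only 2 peaks, at 7.73 per Mb. That count is too small to set its density apart from the 12.7 per Mb of all chromosomes. The locus of 911.589 kb had 28.5 peaks per Mb (19.5 to 41.8, 95% Wilson interval from its share of all peaks), against 11.4 on the rest of chromosome 18 and 12.7 over chromosomes 1 to 19, X and Y. The ratio to the last was 2.25 (1.53 to 3.29). These intervals cover counting error only and take neighbouring peaks as independent. Of 2917 windows of the same length laid end to end along the chromosomes, which held a median of 9 peaks, 208 (7.13%) held 26 or more. The density of the locus was thus high but shared by other regions.

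By segment, the alpha cluster had 2 peaks (7.73 per Mb), and the spacer of 76.1 kb between alpha and beta had 0. The beta cluster had 8 (31.2 per Mb), the spacer of 140.355 kb between beta and gamma had 6 (42.7 per Mb), and the gamma cluster had 10 (55.5 per Mb). Sequence soft-masked as repeats was lowest in the gamma cluster, at 20.5%, against 40.1% in the alpha and 38.0% in the beta cluster and 36.4% over all chromosomes. The gamma cluster was thus the segment with most peaks per Mb and least repeat sequence.

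Some long stretches of the locus held no peak. Gap lengths elsewhere in the list were not measured, so whether these stretches are unusual is not known. Windows of the locus' length held a median of 9 peaks. One of 161.854 kb ran between the peaks at Pcdhac2 and Pcdhb1, and 143.07 kb at the start of the locus held the 12 first exons from Pcdha1 to Pcdha12. A gap of 99.724 kb in the gamma cluster took in 11 variable exons from Pcdhgb4 to Pcdhgc3, and one of 56.451 kb took in Pcdhb16 to Pcdhb22. Beyond the locus, the nearest peaks lay 71.602 kb before it, near Vaultrc5 with a score of 6.1, and 118.824 kb after it, near Rell2 with a score of 7.7.

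**Figure D1:**
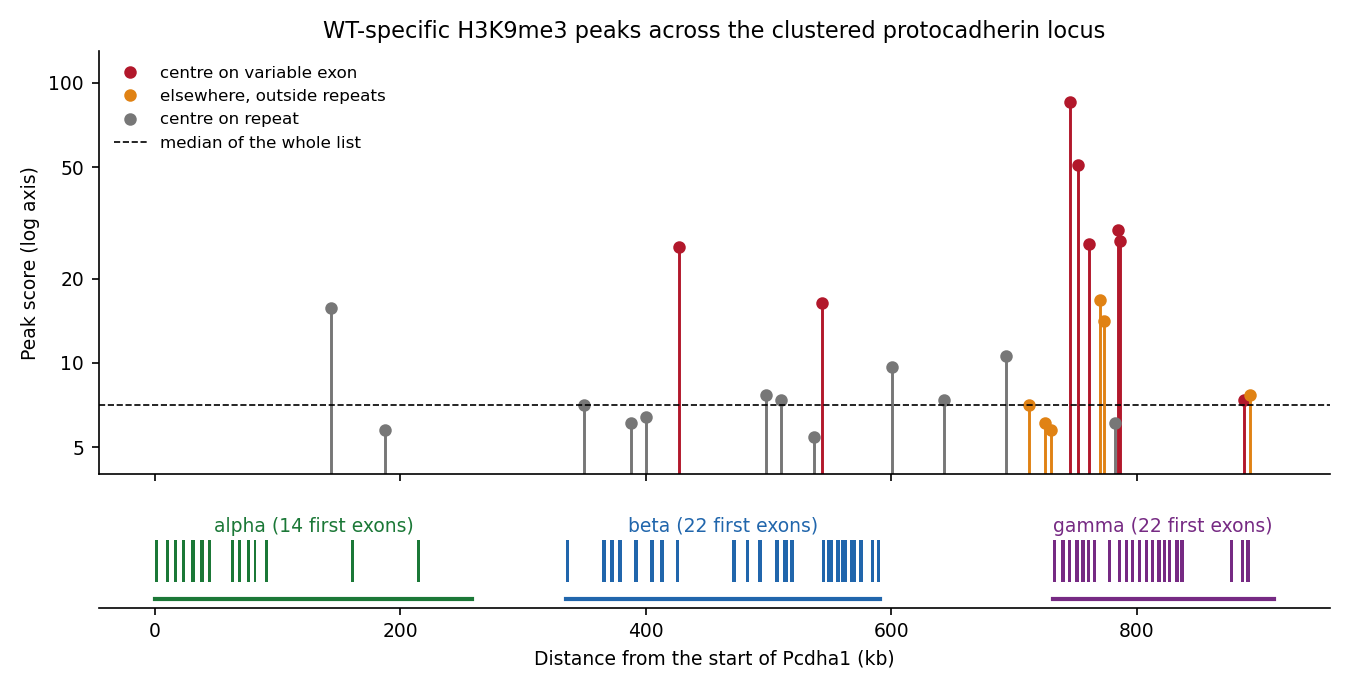
Each stem is a WT-specific H3K9me3 peak, with the authors' score on a log y axis and the distance from the start of Pcdha1 in kb on the x axis, above the variable exons of the 14 alpha, 22 beta and 22 gamma genes (boxes) and the extent of each cluster (lines). Peaks centred on a variable exon (red) reach 85 and stand mostly in the first part of the gamma cluster, while peaks on repeats (grey) reach 15.7 and are spread over all 3 clusters.

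By the authors' nearest TSS, 19 of the 58 members had a peak (32.8%, 22.1 to 45.6%), against 49.1% of 21774 protein-coding genes. They were 2 of 14 alpha, 8 of 22 beta and 9 of 22 gamma genes. Of the 19, 15 had 1 peak, Pcdhb15, Pcdhb22 and Pcdhga1 had 2 each and Pcdhga7 had 3. A peak centred within 10 kb of the TSS was found at 22 members (37.9%, 26.6 to 50.8%), against 25.4% of protein-coding genes. The members thus lay below the background by the first measure and above it by the second. Where members stand close together, 1 peak has 1 nearest TSS but may be within 10 kb of several.

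The score of a peak is the authors' and has no stated scale, so it only ranks peaks within the list. The 26 peaks had a median of 7.7 (7.06 to 16.4, 95% interval of the median), against 7.06 over the whole list, whose quartiles were 6.1 and 8.34. Of the 26, 19 were at or above the list median, against 51.7% of the whole list. At or above the upper quartile of the list were 12 of the 26. In the top 1% of the list, at a score of 23.4 or more, were 6 (23.1%, 11.0 to 42.1%). That limit was chosen with the values in view. The 6 had 5 members as their nearest gene, while 1.04% of protein-coding genes were the nearest to a peak of the top 1%. All 6 were centred on a variable exon, 5 of them in the gamma cluster and 1 in the beta cluster. Only 4 (0.137%) of the 2917 windows held 6 or more such peaks, and 2677 held none.

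The position of a peak within the locus went with its score. The 8 peaks centred on variable exons scored 7.38 to 85, with a median of 26.95, and all 8 were at or above the median of the list. The 12 peaks centred on a repeat scored 5.46 to 15.7, with a median of 7.22. The 6 others, outside repeats and off the variable exons, scored 5.78 to 16.7, with a median of 7.38. In the whole list, peaks outside repeats had a median of 6.74 and peaks on repeats one of 7.06. The variable exon peaks overlapped each other class only in the range from 7.38 to 16.7. The share of the locus that variable exons fill was not measured, so their count of 8 peaks is not read as a preference for exons.

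**Figure D2:**
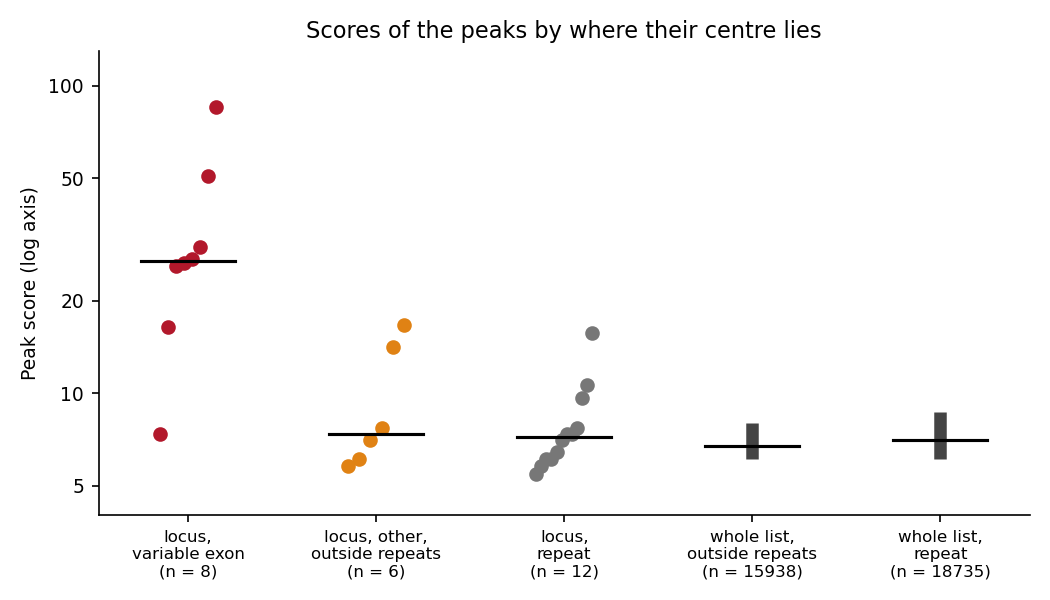
Scores of the peaks (log y axis) by the place of their centre, with each locus peak as a point, medians as horizontal lines and the quartiles of the whole list as vertical bars. The peaks on variable exons have a median of 26.95, against 7.38 for the other locus peaks outside repeats, 7.22 for those on repeats and 6.74 and 7.06 for peaks of the whole list outside and on repeats.

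In the alpha cluster, which encodes the alpha protocadherins expressed largely by neurons, neither peak touched a variable exon (0 of 14 exons, up to 21.5% by the Wilson interval). Of coding exon segments of 2000 bp or more in other genes, 8.74% held a peak centre, a share inside that interval. Both alpha peaks were centred on L1 elements, a family of LINE retrotransposons, in the spacers before the C-type genes. The peak assigned to Pcdhac1 spanned 37073355 to 37074064 over an L1Md_F3 element, 16.43 kb upstream of the TSS, with a score of 15.7 (rank 1145 of the list). The peak assigned to Pcdhac2 spanned 37117297 to 37117797 over an Lx element, 26.42 kb upstream, with a score of 5.78. The first of them was the strongest repeat peak of the locus, and both lay far from the promoters of the genes they are named for.

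In the beta cluster, whose genes encode receptors with a short tail of their own and no constant part, peaks fell into 2 kinds. Of its 8 peaks, 6 were on repeats, with scores of 5.46 to 7.7. They were assigned to Pcdhb1 (L1_Mus2, score 7.06), Pcdhb5 (MTC, 6.1), Pcdhb6 (RLTR10C, 6.42), Pcdhb11 (MTB_Mm-int, 7.7), Pcdhb13 (ORR1A2, 7.38) and Pcdhb15 (L1_Mus3, 5.46). MTC, MTB and ORR1A2 are LTR elements of the ERVL-MaLR family and RLTR10C is one of the ERVK family. The nearest of these to its gene was that at Pcdhb13, 2 kb upstream of the TSS.

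The other 2 beta peaks lay wholly inside the single exon of their gene and outranked all repeat peaks of the locus. At Pcdhb8 the peak spanned 37356968 to 37357468, 1.95 kb downstream of the TSS, with a score of 26 (rank 257). At Pcdhb15 it spanned 37473598 to 37474350, 0.43 kb downstream of the TSS, with a score of 16.4 (rank 994). The Pcdhb8 peak was centred 83.2% of the way along the exon and the Pcdhb15 peak 15.3%, so they sat at opposite ends of their genes. The other 20 beta genes had no peak on the exon. The share with one, 2 of 22 (9.09%), was near the 8.74% of long coding segments of other genes.

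The spacer between the beta and gamma clusters held 6 peaks of moderate score, 5.78 to 10.6. Of these, 2 were assigned to Pcdhb22, the last beta gene, over Lx3A and Lx2 elements 12.7 and 54.75 kb downstream of its TSS, with scores of 9.63 and 7.38. The peak at Slc25a2, the gene of a mitochondrial carrier, was over an MTD element with a score of 10.6. The peak at Taf7, the gene of a subunit of the general transcription factor TFIID, was centred on an exon of that gene with a score of 7.06. The last 2, outside repeats, lay 6.15 and 1.7 kb upstream of Pcdhga1, the first gamma gene, with scores of 6.1 and 5.78. This spacer was richest in repeats (57.8% soft-masked), and it held no peak in the top 1%.

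The gamma cluster held the strongest peaks, and only 1 of its 10 was on a repeat. Before the C-type genes, its gamma A and gamma B genes are intermingled without strict alternation. These subfamilies differ in sequence but share the constant exons. At Pcdhga3 the peak spanned 37674001 to 37676981, 2980 bp, with a score of 85 (rank 24 of 34673). It covered 100% of the variable exon and the sequence just before and after it. The list has 15 peaks of this width or more. Most peaks of the list, 77.1%, are 500 bp wide, whereas 12 of the 26 locus peaks (46.2%, 28.8 to 64.5%) were wider, against 22.9% of the list.

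At the next gene, Pcdhgb1, the peak spanned 37682009 to 37682888 with a score of 50.7 (rank 51) and took in the 3′ part of the variable exon, 32.3% of its length. At Pcdhgb2 it spanned 37691023 to 37691676 with a score of 26.6 (rank 236), wholly inside the exon. Pcdhga4, which lies between these genes, had no peak on its exon. The marked exons were thus not an unbroken run.

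The following 2 peaks were in spacers and outside repeats. One, assigned to Pcdhga5, spanned 37699593 to 37700556 and was centred 3150 bp after the variable exon of that gene, with a score of 16.7 (rank 948). One, assigned to Pcdhga6, spanned 37703137 to 37704096 and was centred 3484 bp before the exon of that gene, with a score of 14.1 (rank 1619). They faced each other across 2.581 kb in the same spacer, and of the locus peaks outside repeats only those on variable exons scored higher. The exons of Pcdhga5 and Pcdhga6 themselves had none.

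At Pcdhga7, the member with most peaks, 2 peaks lay on the variable exon and 1 before it. The first exon peak spanned 37714591 to 37715370, across the TSS, with a score of 29.8 (rank 171). The second spanned 37716579 to 37717336, near the 3′ end of the exon, with a score of 27.3 (rank 221). The peak before the gene, over an RMER1A element 2.48 kb upstream of the TSS, scored 6.1. From Pcdhga3 to Pcdhga7, a stretch of 43.335 kb picked out after its values were seen, there were 8 peaks with a median of 26.95, 5 of them in the top 1%, and 4 of its 7 variable exons held a peak centre.

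The C-type genes differed from one another. Pcdhgc3, the last variable exon inside the gamma gap of 99.724 kb, had no peak assigned. At Pcdhgc4, known in mice for a role in the survival of interneurons, the peak from 37817060 to 37817560 was inside the variable exon with a score of 7.38. At Pcdhgc5 the peak from 37822035 to 37822535 overlapped the last 99 bp of the exon and was centred 151 bp past it, with a score of 7.7. These scores were close to the median of the list, well below those of the gamma A and gamma B exons.

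Along the exon, peaks were found from end to end. Of the 8 centred on a variable exon, those at Pcdhb8, Pcdhgb1, Pcdhgc4 and the second at Pcdhga7 were centred 76.8 to 84.8% of the way along. Those at Pcdhga3 and Pcdhgb2 were centred at 44.9 and 59.4%, and those at Pcdhb15 and the first at Pcdhga7 at 15.3 and 5.77%. Only the peaks of Pcdhga3 and Pcdhga7 reached across a TSS, so the other peaks on variable exons lay downstream of the TSS.

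**Figure D3:**
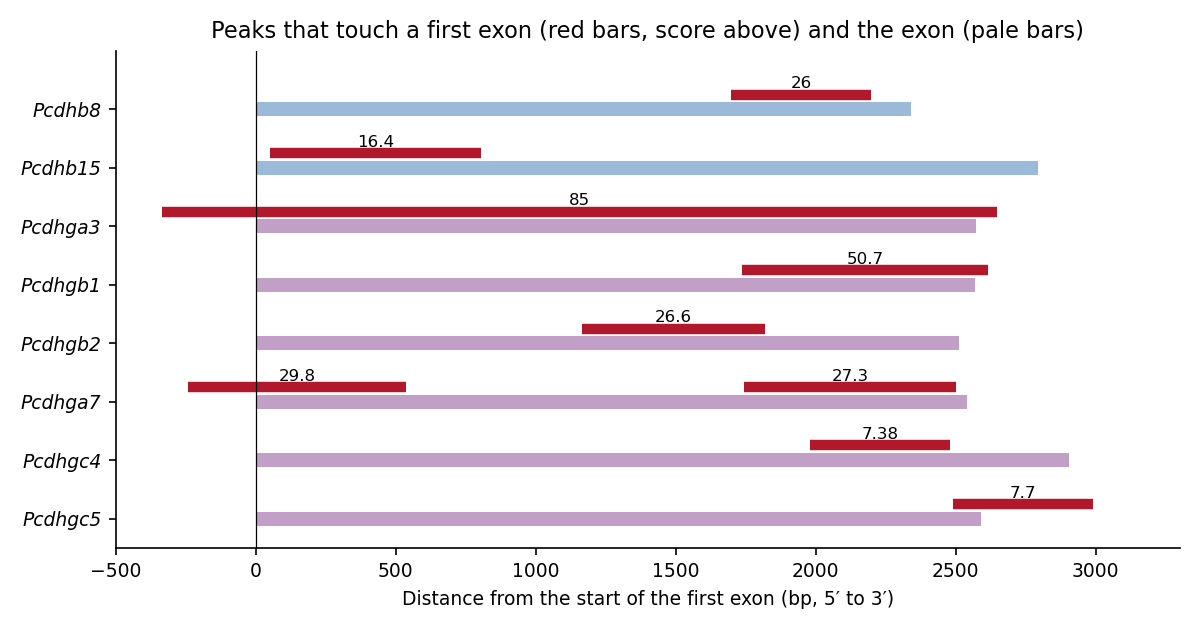
Variable exons touched by a WT-specific peak (pale bars, blue for beta and purple for gamma genes), aligned at their start with the distance in bp on the x axis, and the peaks (red bars) with the authors' score above each. The peak of Pcdhga3 covers the whole exon and that of Pcdhgc5 overlaps its last 99 bp, and Pcdhga7 has a peak at each end.

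High scores on long coding exons were rare elsewhere. The comparison used coding exon segments of 2000 bp or more, the size class of the variable exons. A peak centre was found in 7 of 57 such segments of the members (12.3%, 6.08 to 23.2%) and in 62 of 709 of other genes (8.74%, 6.88 to 11.1%), intervals that overlap. A peak in the top 1% was found in 5 of the 57 (8.77%, 3.81 to 18.9%) and in 1 of the 709 (0.141%, 0.0249 to 0.795%). The gene of that 1 segment was Muc3, which encodes a mucin. No test was run, and the intervals cannot stand in for one, since the members are neighbours and not independent.

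The same locus peaks were also set among all peaks that the authors annotate to an exon outside repeats. This recounts peaks already described, so it is not an independent comparison. There were 1009 such exon peaks, with a median score of 7.38, and the 9 in the locus had a median of 26.6. The highest 2 scores of the 1009 were those of Pcdhga3 and Pcdhgb1. Of the 13 in the top 1%, 6 were in the locus. Of the 11 that scored 26 or more, a limit picked after the values were seen, 6 were in the locus. The locus held 1.66% of the 362 peaks of the top 1%, against 0.0750% of all peaks. Of these 362, 202 were on repeats and 160 outside them.

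**Figure D4:**
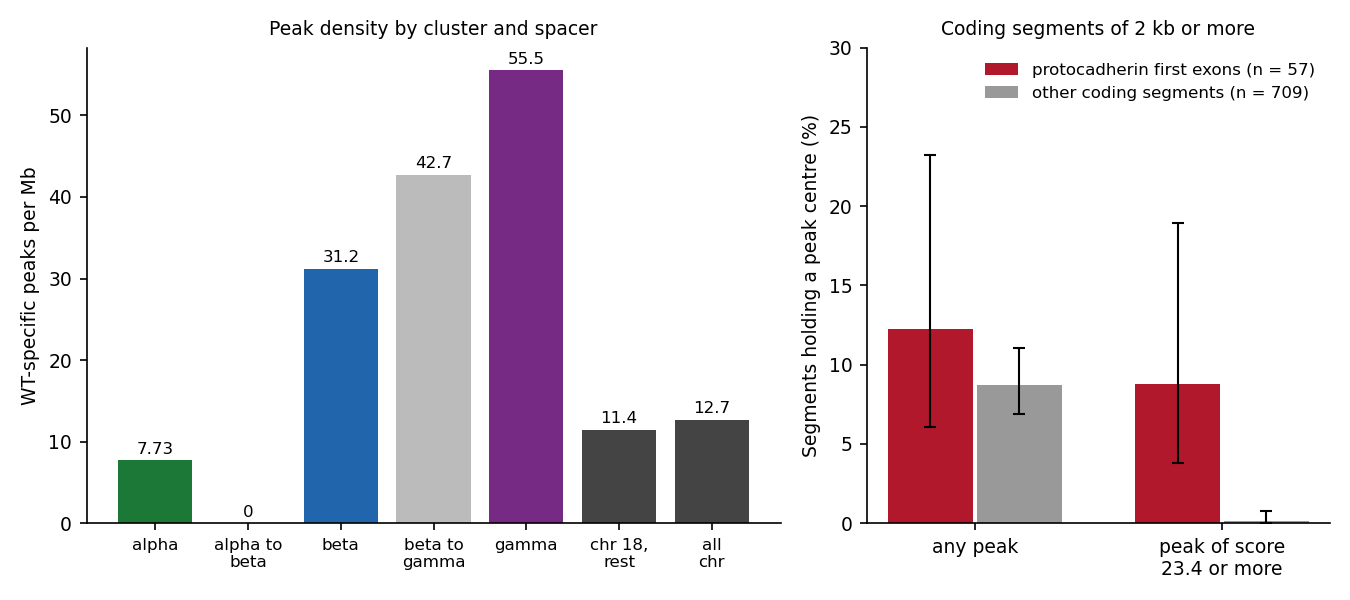
Left, WT-specific peaks per Mb in each cluster and spacer of the locus and, as grey bars at the right, on the rest of chromosome 18 and over all chromosomes, with 55.5 in the gamma and 7.73 in the alpha cluster against 12.7 over all chromosomes. Right, share of coding exon segments of 2000 bp or more that hold any peak centre or one of the top 1% by score, for protocadherin variable exons and other genes, with 95% Wilson intervals (any peak 12.3 and 8.74%, top peak 8.77 and 0.141%).

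Since a read that matches several places was given the 1 with the best score, peaks on sequence shared between members could be misplaced. Sequence that recurs was sought as words of 100 bases found more than once on chromosomes 1 to 19, X and Y. In 6 of the 8 variable exon peaks no such word recurred, among them those of Pcdhga3, Pcdhga7, Pcdhb8 and Pcdhb15. In the peak of Pcdhgb1 25.5% of the words recurred, in up to 4 places, and in that of Pcdhgb2 7.93% did, so these 2 are less certain. Alpha variable exons held more recurring words (median 5.32%, highest 13.6%) than beta (median 0.0829%, highest 2.41%) and gamma exons (median 0, highest 10.8%). The gamma exons of Pcdhgb1 and Pcdhgb2, which do hold peaks, were at 9.84 and 10.8%. How far recurring words bear on the lack of peaks in the alpha exons was not tested.

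Base composition was compared between the peaks and between exons with and without one. The variable exon peaks had 46.9 to 59.5% GC (median 53.0%), the other locus peaks a median of 45.1% and the whole list one of 49.1%. The ratio of observed to expected CpG, the dinucleotide that DNA methylation acts on, had a median of 0.440 in the variable exon peaks, 0.229 in the other locus peaks and 0.205 in the whole list. The 7 variable exons with a peak centre had a median GC of 52.6% and a CpG ratio of 0.466, and the 51 without had 51.7% and 0.476. These medians pool clusters of different composition. Within the gamma cluster the 5 exons with a peak centre had 52.7% GC and a CpG ratio of 0.510, and the 17 without had 52.5% and 0.613. Among beta exons, whose median GC was 47.2%, that of Pcdhb8 was highest at 52.6%. No test was run on these values.

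The authors' annotation of the locus depends on the transcripts used. They place 11 of the 26 peaks in intron 1 of a single read-through transcript that joins the first exon of Pcdha7 to the gamma constant exons, annotated as the gene Gm38667. By the members' own exons all 11 lie in spacers. For 17 of the 24 peaks assigned to members, the deposited distance from the TSS was within 2 bp of that recomputed from RefSeq.

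Protocadherins outside the clusters were set beside the members. Of 12 such genes, 7 had an assigned peak (58.3%, 32.0 to 80.7%), against 49.1% of protein-coding genes, which lies inside that interval. A peak inside the gene or within 10 kb of its TSS was found at 4 of the 12, against 42.1% of protein-coding genes. Pcdh15, whose product forms the tip links of hair cells, had 11 peaks inside its 1553.560 kb, with scores of 5.46 to 18.6, and Pcdh9 had 3 inside, with scores of 6.1 to 7.38. Pcdh11x, on the X chromosome, had 1 with a score of 6.42, and at Pcdh12, an endothelial protocadherin, a peak with a score of 6.42 lay 0.194 kb from the TSS. The highest score assigned to any of the 12 was 18.6, against 85 in the clustered genes.

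The Ugt1a cluster, where as in the protocadherins many variable first exons share constant exons, encodes enzymes that conjugate bilirubin and drugs. It had 3 peaks in 164.592 kb (18.2 per Mb). One with a score of 8.99 lay at the promoter of Ugt1a5, one with a score of 9.31 was over an IAPLTR4 element, and one with a score of 37.9 (rank 89) was in an intron of Ugt1a1. None of the 3 was on an exon, too few peaks to set against the 8 of 26 on variable exons of the protocadherins. How much of either cluster its exons fill was not measured.

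Among 16 genes for chromatin proteins known to act on protocadherin choice, 9 had an assigned peak, against a background of 49.1%, and 7 had one inside the gene or within 10 kb of its TSS, against one of 42.1%. Smchd1, a noncanonical SMC protein that silences the clusters, had 2 inside, with scores up to 40.1. Dnmt3a, a DNA methyltransferase that acts de novo, had 2 inside, with scores up to 16, and Dnmt1, which maintains DNA methylation, had 2 with scores of 5.46 and 7.06. Dnmt3b, Wapl, which releases cohesin, and Atf7ip, a partner of Setdb1, had 1 each, with scores of 9.95, 16 and 12.5. The genes of cohesin subunits were divided. Smc3 had 1 peak 4.138 kb from its TSS with a score of 7.06 and Rad21 had 4 assigned, the nearest at 16.332 kb, with scores up to 10.3, while Smc1a, Stag1 and Stag2 had none assigned. Ctcf, Rest, Trim28 and Setdb1 itself had none. The highest score assigned in this list, 61, was of a peak 74.784 kb from the TSS of Nipbl, which loads cohesin.

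Of 14 genes for proteins that bind clustered protocadherins or act with them inside the cell, 8 had an assigned peak, with scores up to 8.99, and 8 had one inside the gene or within 10 kb of its TSS, against a background of 42.1%. Nlgn1, the gene of a synaptic adhesion protein, had 5 peaks inside its 911.059 kb or within 10 kb of its TSS. Cyfip2, of the WAVE complex that drives actin branching, had 4, with a gene length of 119.011 kb. Ptk2b, the kinase Pyk2 that gamma and alpha tails inhibit, had 3, with a length of 127.844 kb. These counts were not scaled by gene length, and a long gene takes in more peaks. The last 2 lists, chosen with results of these data known, had shares of 9 of 16 and 8 of 14, near the background of 49.1%. None of the partner genes had a peak in the top 1%. Among the chromatin regulators, Smchd1 and Nipbl had an assigned peak in the top 1%, with scores of 40.1 and 61. Over all protein-coding genes, 1.04% were the nearest to such a peak.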

How the data were processed

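H3K9me3 ChIP-seq of BG was aligned by the authors to mm10 with Bowtie2 (2.2.8 in the submitters' processing notes). A read matching several places kept its best location, with at most 1 tag per position. The authors called peaks with HOMER (4.10.1 in the notes) and kept those present in WT and absent in mutant BG. The deposited list gives positions, the authors' peak score (scale not given in the sources used here), the nearest TSS and the repeat at each centre, with libraries merged and depth unknown.

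Positions were set beside RefSeq GRCm38.p6 with Python 3.11.15, numpy 2.4.6, pandas 2.3.3 and numba 0.67.0. A peak was placed by its centre, and a variable exon was the first exon of a member. Shares have 95% Wilson intervals, which cover counting error only, and no hypothesis test was run. The search for recurring words of 100 bases was tested on simulated data. The genes named are members with a peak, C-type members, other genes named for a locus peak, and up to 4 genes of each other list with most peaks inside or within 10 kb of the TSS. Muc3, the genes next to the locus and, among the chromatin regulators, the genes beyond these 4 and those without such a peak were added after values were seen. Members and lists were chosen with earlier results of these data known. Sequences of the locus are not reported here.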

Additional observations from a re-analysis of the deposited data

How the results depend on the processing

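Of 32 alternatives, 18 gave a value close to that reported and 14 moved it. Closeness of a count does not fix its side of the background. The members' share lay below it by nearest TSS (32.8%, against 49.1% of protein-coding genes) and above it within 10 kb of the TSS (37.9%, against 25.4%). Members with a peak went from 19 to 8 when the peak had to touch the variable exon and to 11 with only peaks outside repeats. Peaks of the locus went from 26 to 14 outside repeats, 12 at or above the upper quartile of the list and 16 when peaks within 10 kb were joined. With scores at or above the list median the alpha cluster had 1 and the beta cluster 5 peaks, and outside repeats 0 and 2. Outside repeats, the median score of the locus was 16.55. The gamma cluster kept 9 of its 10 peaks under each of these 2 filters, and the density ratio to all chromosomes ranged over 1.73 to 3.18.

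Chosen after seeing the data were other limits for long coding segments. With the top 0.5% of the list, 3 of the 57 (5.26%) held a peak, against 1 of 709 segments of other genes (0.141%). With the top 5%, 6 of the members' (10.5%) and 6 of the others (0.846%) did. With segments of 1500 or 1000 bp or more, 5 of the 57 segments of the members (8.77%) did each time, against 4 of 1454 (0.275%) and 7 of 3195 (0.219%) of other genes. With only peaks whose every word of 100 bases occurs once, 6 of the 8 variable exon peaks were left. Those at Pcdhgb1 and Pcdhgb2, with scores of 50.7 and 26.6, were dropped. Both are in the top 1%, and all counts of top peaks given here include them.

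No paired analysis was possible because the list merges the libraries and holds no value per library. Leaving out each replicate in turn was not run for the same reason. Scores rank peaks within 1 list and cannot be read as amounts of H3K9me3, and the absence of a peak says nothing of H3K9me3 that WT and mutant BG share.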
